A study of Mus musculus with 53 samples.

Results

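Meningeal fibroblasts were taken from single-cell RNA-seq of mouse cerebellum at postnatal day 7 (P7) as barcodes carrying transcripts of the cells that wrap the brain. A barcode was a member when it held 1000 to 20000 transcripts (unique molecular identifiers, UMIs) and at least 500 genes, and had UMIs of at least 3 of the 6 fibroblast markers Col1a1, Col1a2, Col3a1, Dcn, Lum and Slc6a13. It also had to carry fewer than 3 of the endothelial markers Flt1, Pecam1, Cldn5 and Kdr and fewer than 3 of the skeletal muscle markers Ttn, Neb, Myh3, Actc1, Mybpc1 and Klhl41. The rule gave 1528 members among the 62348 barcodes within the depth limits of 10 libraries. Since the members were chosen on the levels of these 16 genes, those levels are given only as a description.

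Each P7 library came from 1 cerebellum of 1 pup, dissociated with papain, fixed, and barcoded by split-pool combinatorial indexing. The 2 Insm1 control libraries were Insm1fl/fl, and the 3 Insm1 mutants were Atoh1Cre; Insm1fl/fl. The 2 Tead1/2 controls were Tead1fl/fl;Tead2fl/fl, and the 3 Tead1/2 mutants carried Atoh1Cre with the same floxed alleles. Library 1 of every group held all lobules, and libraries 2 and 3 were made without lobules IX and X. All 4 groups share floxed alleles and none of the controls carried Cre, so any effect of the Cre itself cannot be told apart from that of the deletion. Atoh1Cre drives recombination in the rhombic lip and the granule cell lineage, and meningeal fibroblasts are not of that lineage. Bulk RNA-seq of whole cerebellum at postnatal day 2 (P2) supplied libraries of the same genotypes from 1 pup each, with 4 controls and 4 mutants for Insm1 and 3 controls and 4 mutants for Tead1/2. By its title the study asks how muscle fate is kept repressed in the neural lineage; here the question is what the cells around that lineage showed.

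The meninges are layered sheets of connective tissue in which fibroblasts lay down fibrillar collagen and, at the brain surface, the laminin and collagen IV of the pial basement membrane. In the developing cerebellum the granule cell precursors lie directly beneath the pia, and meningeal Cxcl12 is known to hold them there through its receptor Cxcr4. Fibroblasts of the arachnoid and pia also make retinoic acid, bone morphogenetic proteins and insulin-like growth factors, and they carry solute transporters of the blood-cerebrospinal fluid barrier.

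Members were found in every library, 68 (Tead1/2 control 2) to 307 (Tead1/2 mutant 3) per library, and no barcode was shared between libraries. Of them, 557 (36.5%) had all 6 fibroblast markers, 712 (46.6%) had 5, 161 (10.5%) had 4 and 98 (6.41%) had 3. Just outside the rule, 199 barcodes carried exactly 2 of the markers. A further 13 barcodes with enough fibroblast markers were left out for endothelial markers and 165 for muscle markers. The depth limit left out 824 barcodes above 20000 UMIs that otherwise met the rule. Libraries held 98416728 to 226631912 UMIs over all their barcodes, and the median member held 8081 to 10249 UMIs.

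As a description of what the rule selected, Col1a1, a chain of type I collagen, had a UMI in 97.1% of members, 0.602% of granule-rule cells and 0.241% of endothelial-rule cells. Granule-rule cells are 44510 barcodes with granule neuron markers, and endothelial-rule cells are 415 barcodes with endothelial markers alone. The median depth per library was 5597 to 8025 UMIs in the former and 3492 to 6410 in the latter. Slc6a13, a GABA and taurine transporter of the meninges, had a UMI in 86.6% of members and 0.213% of granule-rule cells. Lum, a small collagen-binding proteoglycan, was the least often detected marker, in 39.4% of members against 0.0607% of granule-rule cells.

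Genes of the meninges that the rule did not use were also detected more often in members than in the comparison classes. Those classes had been limited in fibroblast markers, and fibroblasts of other sites were not told apart. Tbx18, a T-box transcription factor of meningeal and mural cells, had a UMI in 82.7% of members, 50% of the 92 mural-rule cells (barcodes with pericyte and smooth muscle markers) and 0.258% of granule-rule cells. After each cell was thinned to 1000 UMIs these shares were 42.3%, 16.3% and 0.0539%. Foxc1, a forkhead factor required for meningeal development, was detected in 72.5% of members, 36.1% of endothelial-rule cells and 0.173% of granule-rule cells. Thinned, Foxc1 was detected in 15.4% of members, 9.40% of endothelial-rule, 9.78% of mural-rule and 0.0315% of granule-rule cells. Cxcl12, the chemokine that acts on granule precursors, was detected in 87.7% of members against 13.3% of endothelial-rule and 6.62% of granule-rule cells. Thinned, the Cxcl12 shares were 40.5%, 7.23% and 0.955%.

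The 20 genes with the largest ratio of member level to granule-rule level (the rule's own markers left out) included solute carriers, matrix genes and enzymes. The organic anion transporter Slc22a6 averaged 243 CPM (counts scaled to a common library total) in members and 0.128 CPM in granule-rule cells. The proline and glycine carrier Slc6a20a averaged 807 against 0.518 CPM. The retinoic acid synthesizing enzyme Aldh1a2 averaged 356 against 0.367 CPM. The laminin chain Lamc3 averaged 345 against 0.239 CPM, the endothelin Edn3 averaged 226 against 0.126 CPM, and vitronectin (Vtn) averaged 318 against 0.175 CPM. Mural-rule cells had more than members of Vtn (430 CPM) and Lamc3 (390 CPM), and less of Slc6a20a (254 CPM) and Aldh1a2 (3.35 CPM). Col6a1, Col6a2, Col13a1 and Col15a1, which encode chains of beaded-filament and membrane-associated or basement-membrane collagens, were also among them. All these ratios describe cells chosen by fibroblast markers and carry no test.

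Members also carried transcripts of other cells. Of the 1528, 497 had at least 2 markers of the granule lineage, 137 of oligodendrocytes, 128 of astroglia, 98 of GABAergic interneurons and 38 of mural cells. Altogether 617 (40.4%) had at least 2 markers of 1 of these classes, and 911 had at most 1 of each and are called low-marker members here. They still held some RNA of other cells: Rbfox3, a marker of mature neurons, had a UMI in 14.6% of them, and Etv1, Unc5c and Slc1a3 were not counted among the markers. Microglia and macrophages were not a class screened for, and their 11 genes summed to 1174 CPM in low-marker members of Tead1/2 control 2, against 240 to 552 CPM in the other 9 libraries. The share of low-marker members was 41.3% and 46.0% in the Insm1 controls and 68.5%, 60.4% and 50.7% in the Insm1 mutants. It was 50.3% and 52.9% in the Tead1/2 controls and 69.0%, 72.1% and 66.4% in the Tead1/2 mutants. In both alleles every mutant lay above both of its controls. The median depth of a library's members with other-class markers was 11158 to 13771 UMIs, against 4601 to 9086 for its low-marker members. Results are therefore given for all members and for the 911. No doublet caller was run.

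Muscle transcripts were also present at a low level. At least 1 of the 6 muscle markers was detected in 46.0% and 43.9% of members of the Insm1 controls, and in 55.1%, 50% and 52% of those of the Insm1 mutants. For Tead1/2 the values were 49.7% and 36.8% in controls, and in mutants 64.1%, 81.0% and 69.7%. Ttn, the giant sarcomere protein titin, averaged 70.2 CPM in members, 86.0 CPM in granule-rule cells and 5.38e+03 CPM in barcodes of fewer than 100 UMIs, which mostly hold free RNA.

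The 911 low-marker members fell into 7 clusters, which were numbered and not named. Cluster 2 was the largest, with 362 members (39.7%). It carried Asic2, a proton-gated ion channel, at 3169 CPM, together with Lama1 at 2078 CPM, Col4a1 at 3882 CPM, Col15a1 at 1678 CPM and Tbx18 at 1289 CPM. Lama1 and Col4a1 encode chains of laminin and collagen IV, the main proteins of the basement membrane under the pia. Cluster 1 held 264 members (29.0%) and was led by the neuronal-type surface genes Dpp6 and Dcc, with the lipid transporter Abca8a at 389 CPM and the angiopoietin Angpt1 at 400 CPM. Cluster 3 held 136 members (14.9%) and was led by Tmem132d, at 530 CPM.

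The smaller clusters carried more particular gene sets. Cluster 4, with 37 members (4.06%), carried Ptgds, the prostaglandin D synthase of arachnoid cells, at 6725 CPM. It also had Aldh1a2 at 1390 CPM, the sulfate transporter Slc13a4 at 912 CPM and the organic anion transporter Slc22a8 at 465 CPM. In cluster 2 the same 3 genes stood at 493, 131 and 39.5 CPM. Cluster 5, with 42 members (4.61%), was led by genes of cell division, with the proliferation antigen Mki67 at 1355 CPM and the topoisomerase Top2a at 1041 CPM. Cluster 6, with 47 members (5.16%), carried the multidrug exporter Slc47a1 at 1127 CPM, the anion exchanger Slc26a7 at 864 CPM, Igfbp5 at 2659 CPM and the calcification inhibitor Mgp at 259 CPM, and it had Slc6a13 at only 1.84 CPM. Cluster 7 held 23 members (2.52%) with a median of 1393 UMIs. The clusters were built from these same genes, so the values define them and are not tests.

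**Figure D1:**
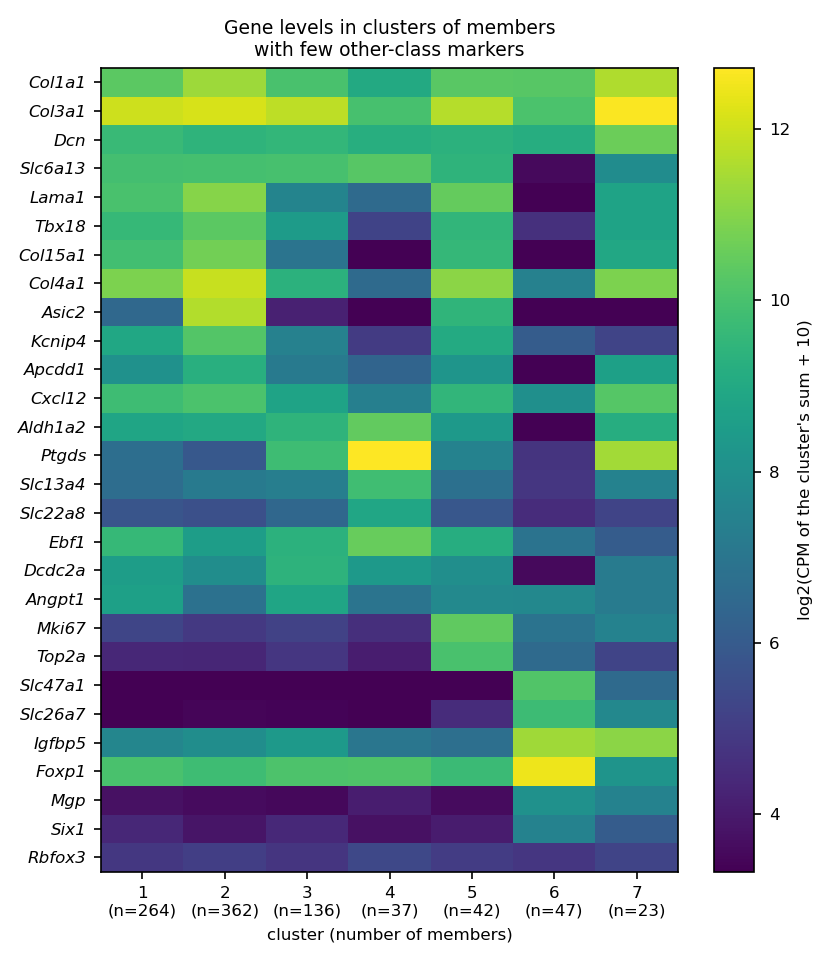
Levels of 28 genes in the 7 clusters of the 911 low-marker members, as log2 of the CPM of each cluster's summed counts plus 10. Rows are genes and columns are clusters with their numbers of members. Asic2, Lama1 and Tbx18 are bright in cluster 2, Ptgds and Aldh1a2 in cluster 4, Mki67 and Top2a in cluster 5, and Slc47a1 and Slc26a7 in cluster 6.

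In the Insm1 comparison the share of members depended on the upper depth limit. Within the limits they made up 1.83% and 2.14% of barcodes in the Insm1 controls and 2.13%, 1.75% and 2.20% in the mutants. The means were 1.99% ± 0.219 (SD, n = 2) and 2.02% ± 0.244 (SD, n = 3), a difference of 0.0368 percentage points (two-sided exact permutation test, p = 0.9, adjusted over 3 share tests 0.9). Within 1 allele the smallest p this design allows is 0.1. The limit of 20000 UMIs left out 152 and 190 barcodes that otherwise met the rule in the Insm1 controls, against 37, 38 and 39 in the mutants. With no upper limit the shares were 2.82% and 3.83% in the controls and 1.89% to 2.39% in the mutants, with no overlap and a difference of -1.14 points (exact permutation p = 0.1, adjusted 0.3). Which barcodes above the limit hold single cells was not tested.

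In the Tead1/2 comparison members made up 2.34% and 1.35% of barcodes in the controls and 2.23%, 3.23% and 5.31% in the mutants. Mutant 3 was the highest and mutant 1 lay between the controls, so the groups overlapped. The means were 1.84% ± 0.705 (SD, n = 2) and 3.59% ± 1.57 (SD, n = 3), a difference of 1.74 points (exact permutation test, p = 0.3, adjusted 0.45). The difference was 0.886 points without mutant 3. The overlap depended on the rule. The limit on muscle markers left out 1 and 2 barcodes in the controls and 22, 70 and 39 in the mutants. With these kept the shares were 2.36% and 1.39% in the controls and 2.56%, 4.21% and 5.98% in the mutants, without overlap (difference 2.38 points, exact permutation p = 0.2, adjusted 0.3). With the muscle limit in place the groups were also apart when 4 of 6 fibroblast markers were required (2.06% and 1.31% against 2.09%, 2.92% and 5.01%) and when barcodes were thinned to 1000 UMIs (1.90% and 1.23% against 2.27%, 3.71% and 5.41%). They overlapped with no upper depth limit, at 3.01% and 2.23% against 2.26%, 2.77% and 5.59% (difference 0.922 points, exact permutation p = 0.8, adjusted 0.93). A further count took only barcodes with fewer than 3 granule and fewer than 3 muscle markers, both for members and for the total. Members with 3 or more granule markers were thus left out. These shares also overlapped, at 10.3% and 7.83% against 7.10%, 11.7% and 16.4% (exact permutation p = 0.5, adjusted 0.75). Over both alleles the mean difference was 0.891 points (exact permutation within alleles, p = 0.25, adjusted 0.45; smallest possible p 0.01), and with no upper depth limit it was -0.110.

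Low-marker members were a larger share of barcodes in every mutant than in either control of its allele. They made up 0.758% and 0.987% in the Insm1 controls and 1.46%, 1.05% and 1.11% in the Insm1 mutants. For Tead1/2 they made up 1.18% and 0.713% in controls, and in mutants 1.54%, 2.33% and 3.53%. The differences were 0.337 and 1.52 points (exact permutation tests, p = 0.2 for each). Over both alleles the mean difference was 0.928 points (p = 0.04 by exact permutation, adjusted over the 3 share tests 0.12). Granule-rule cells were 44510 of the 62348 barcodes, and a share rises when other cells of the suspension are fewer. Over all barcodes, members with fewer than 3 granule markers differed by 0.366 points between Insm1 mutants and controls (exact permutation p = 0.2). Among barcodes with fewer than 3 granule and fewer than 3 muscle markers, the same members were 7.56% and 8.90% in Insm1 controls. In the Insm1 mutants they were 7.37%, 5.91% and 6.21% (difference -1.74 points, exact permutation p = 0.2), and the Tead1/2 groups overlapped there. The part of fewer other cells, and of the change in other-class markers, in the differences was not tested.

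Set against the endothelial cells of the same suspension, members were fewer in every Insm1 mutant than in either control. Endothelial barcodes were counted here by at least 3 of the 4 endothelial markers, whatever granule markers they held, 42 to 99 per library. The Insm1 controls held 263 and 284 members per 100 such barcodes, and the Insm1 mutants held 165, 161 and 160, with no overlap (exact permutation p = 0.1, the smallest possible, adjusted over 3 tests 0.3). The Tead1/2 controls held 220 and 139, and the mutants held 345, 228 and 432, again with no overlap (exact permutation p = 0.2, adjusted 0.3). The denominator moved too: such barcodes were 0.697% and 0.755% of all barcodes in the Insm1 controls and 1.29%, 1.09% and 1.38% in the mutants, while the member shares given above overlapped. For Tead1/2 they were 1.06% and 0.970% in controls, and in mutants 0.645%, 1.42% and 1.23%. The difference between both mutant effects was 267.5 members per 100 endothelial barcodes (exact permutation within alleles, p = 0.02, smallest possible 0.01). It was not one of the planned share tests, and its p is unadjusted. Over both alleles the mean difference did not pass the threshold (exact permutation p = 0.75). Counted more narrowly, with fewer than 3 granule and fewer than 3 mural markers, endothelial barcodes numbered 19 and 23 in the Insm1 controls and 29 to 75 in the other libraries. The Insm1 controls then held 652 and 732 members per 100 and the mutants 265, 247 and 259, again apart. The Tead1/2 groups overlapped, with 325 and 200 in the controls and 414, 301 and 590 in the mutants (adjusted p of exact permutation 0.33). The difference between the alleles was then 608 (exact permutation p = 0.02).

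**Figure D2:**
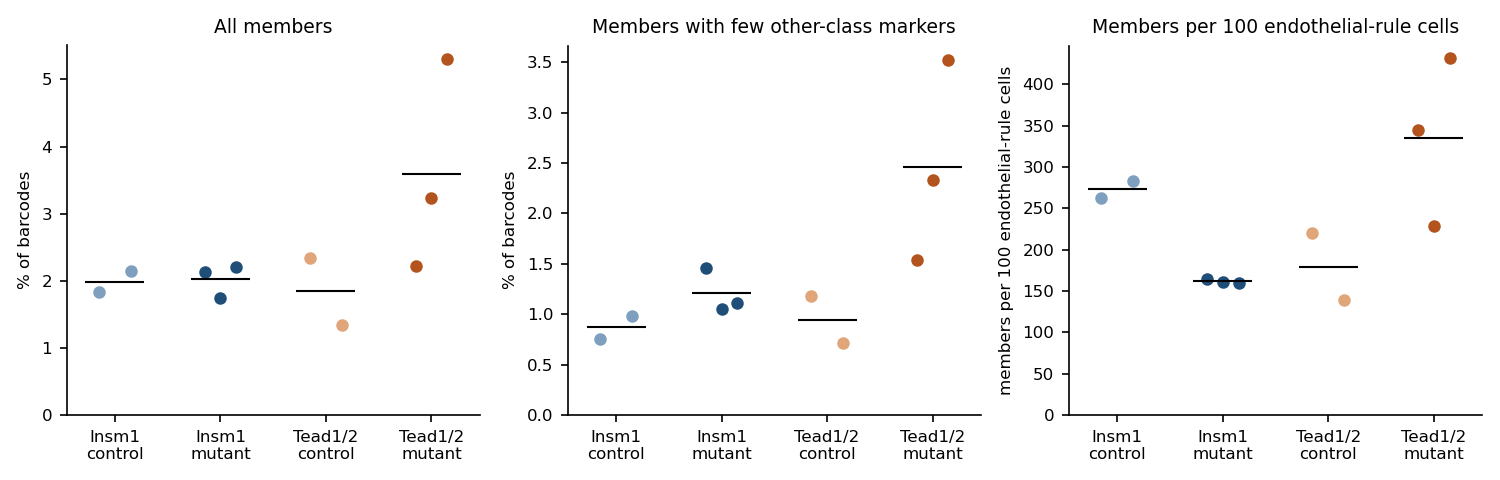
Members in each of the 10 libraries, as a percentage of barcodes within the depth limits for all members (left) and for low-marker members (middle), and per 100 endothelial barcodes (right). Points are libraries and lines are group means. In the middle panel every mutant lies above both controls of its allele, and in the right panel the Insm1 mutants lie at 160 to 165, below their controls.

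The targeted genes were read in the members first. Insm1, a zinc-finger repressor of neuroendocrine and neuronal progenitors, had levels of 23.8 and 30.4 CPM in members of the Insm1 controls, and of 3.55, 1.98 and 8.79 CPM in those of the mutants. It fell by 2.57 ± 0.44 on the log2 scale (log2 change ± SE, adjusted p = 0.00648, edgeR's quasi-likelihood test with Benjamini-Hochberg adjustment). The granule-rule mean of Insm1 was 55.8 CPM, and in low-marker members it averaged 1.13 CPM and was too low to test. Tead1, a DNA-binding partner of YAP and TAZ, stood at 573 and 619 CPM in the Tead1/2 controls and 675, 580 and 618 CPM in the mutants (log2 change 0.07, edgeR adjusted p = 0.852). Tead2 stood at 23.6 and 18.5 CPM in the controls and 12.01, 15.1 and 9.69 CPM in the mutants (log2 change -0.85, edgeR adjusted p = 0.104). UMIs counted over a whole gene do not check an internal deletion, which may leave the rest of the transcript.

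Across all members edgeR called 364 of 11407 genes in the Insm1 comparison at an adjusted p under 0.05, a background of 3.19%. Of these, 85 were higher in mutants (0.745%) and 279 lower (2.45%). For Tead1/2 it called 594 genes (5.21%), 124 higher (1.09%) and 470 lower (4.12%). For the difference between the alleles edgeR called 0 genes, with 639 at an unadjusted p under 0.05, while DESeq2 called 6, the fit with the number as a block 5 and edgeR with no low-count filter 137. Without Insm1 control 2 the Insm1 count was 56. Without Tead1/2 control 1 or control 2 the Tead1/2 count was 249 or 358. Library number 1 also marks the wider dissection, and with the number as a block the adjusted p in edgeR was above 0.05 for some called genes named further on. These were Col4a2 (0.0741) and Nusap1 (0.0616) in the Insm1 comparison, and for Tead1/2 Nr4a3 (0.107), Kif11 (0.0838), Nusap1 (0.0792), Col14a1 (0.0592), Loxl1 (0.069), Fmod (0.0794), Igf2 (0.0618), Ccn1 (0.0839) and Aqp4 (0.0915). A term for sex, read from each library, likewise left Col4a2, Nusap1 and Ebf1 uncalled in the Insm1 comparison (edgeR adjusted p = 0.0586 to 0.0654). In that of Tead1/2 it left Col14a1, Sparc, Loxl1, Fmod, Foxc1, Aldh1a2, Igf2, Ccn1, Myof, Nusap1, Dusp6 and Nr4a3 uncalled (adjusted p up to 0.191).

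Most genes called lower had a higher level in granule-rule cells than in members. Of the 279 lower in Insm1 mutants 275 (98.6%) did, as did 451 of the 470 (96.0%) lower in Tead1/2 mutants, against 47.1% of all genes tested. Of the genes called higher, 33 of 85 (38.8%) and 26 of 124 (21.0%) were of this kind. Nrg1, the growth factor neuregulin 1, was at 918 and 1243 CPM in Insm1 control members, with 270, 263 and 178 CPM in the mutants. Tead1/2 controls had 582 and 907 CPM and mutants 48.0, 77.0 and 122 CPM. The log2 changes were -2.18 and -3.12 (edgeR adjusted p = 0.00128 and 4.57e-05), and the granule-rule mean was 1252 CPM.

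The granule lineage list itself had 9 genes tested in all members, of which 5 fell in Insm1 mutants and 6 in Tead1/2 mutants, with list medians of -0.81 and -1.45 on the log2 scale against 0.00 for all genes in each comparison. The neuronal nuclear marker Rbfox3 changed by -0.79 and -1.68. The bHLH factor Neurod1, which drives granule cell differentiation, changed by -1.21 and -1.45, and the adhesion molecule Cntn2 by -1.29 and -2.35. The summed list was 3397 and 4007 CPM in members of the Insm1 controls against 2345 to 2783 CPM in their mutants. For Tead1/2 it was 2905 and 3347 CPM in controls against 1027 to 1492 CPM in mutants. In low-marker members it was 272 to 574 CPM in every library. The part of granule RNA in the calls above was not tested beyond this second set.

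Among low-marker members edgeR called 1 of 8361 genes in the Insm1 comparison (0.012%) and 6 in the Tead1/2 comparison (0.0718%), 2 higher (0.0239%) and 4 lower (0.0478%). No difference between alleles was called (472 at an unadjusted p under 0.05, 2 by DESeq2). Low-marker members are a subset of all members, so both sets give overlapping and not independent values. For genes called in all members and tested here, the median change of the higher genes went from 0.78 to 0.35 for Insm1 and from 0.78 to 0.58 for Tead1/2. That of the lower genes went from -0.92 to -0.16 and from -0.91 to -0.29. Tested here were 70 of the 85 and 110 of the 124 higher genes, of which 66 and 104 kept their direction. Of the lower genes 161 of the 279 and 274 of the 470 were tested, and 106 and 198 kept it. These genes were chosen by their change in all members, so some shrinkage can arise from the choice alone. The Tead1/2 count moved without single mutant libraries, to 2 without Insm1 mutant 3 or Tead1/2 mutant 1 and to 9 without Tead1/2 mutant 2. Tead1/2 control 2 was the library with most microglial and macrophage RNA, and the part of that RNA in the calls was not tested. This set holds fewer UMIs, and with all members thinned to the same depth edgeR called 184 and 427 genes. The thinned sums still drew on all members, so depth was matched and the number of cells was not. The part of fewer cells in the lower counts was not tested.

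**Figure D3:**
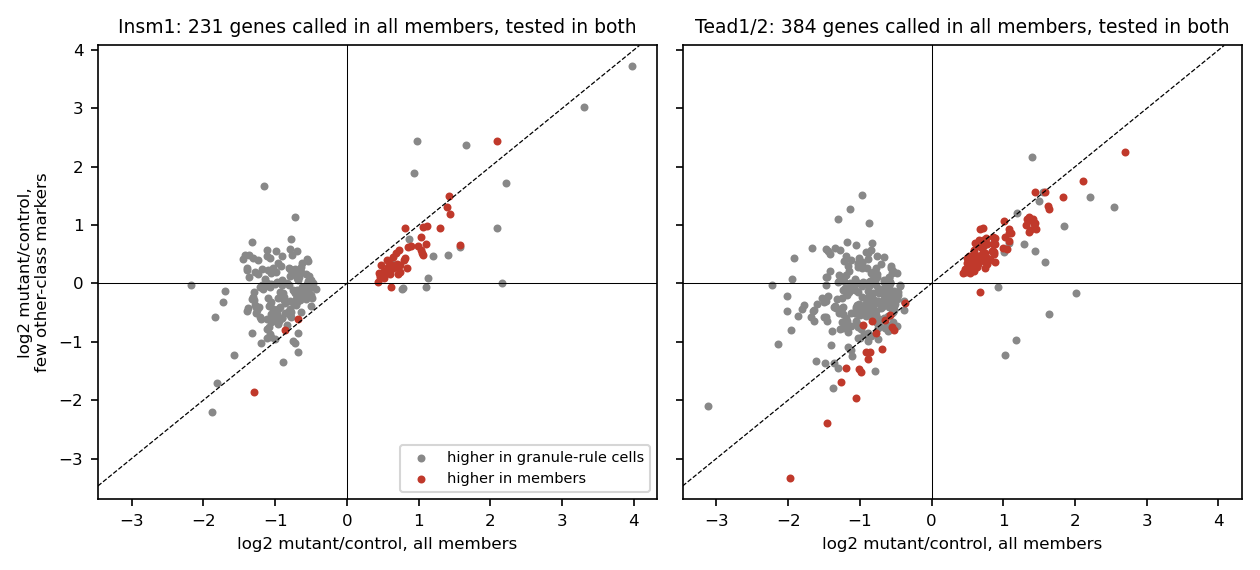
Log2 change between mutants and controls for genes called in all members and tested in both sets, in all members (horizontal) and in low-marker members (vertical), for Insm1 (left) and Tead1/2 (right). Each point is a gene, grey where its level was higher in granule-rule cells and red where it was higher in members, and the dashed line marks equal change. Most points at the lower left are grey and lie nearer 0 on the vertical axis than on the horizontal one.

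The 7 genes called in low-marker members fall into signalling feedback and transcription (Dusp6, Errfi1, Nr4a3), cell surface and Wnt signalling (Adam19, Apcdd1), and channel binding and cytoskeleton (Kcnip4, Dcdc2a). All 7 had a higher level in members than in granule-rule cells. For 3 of the 4 genes called lower in Tead1/2 mutants a stretch of promoter is shown, chosen because it holds a motif match and centred on that match, so the presence of the motif in it is no finding. TEAD factors bind DNA at a known motif, and whether Tead1 or Tead2 was deleted in members was not tested. The sequences are from RefSeq promoters on GRCm38.p6, 250 bases before to 50 after a start site, all on the plus strand. Capitals mark the TEAD motif GGAATG, here as its reverse complement CATTCC, and the cAMP response element core TGACG, whose reverse complement is CGTCA.
Nr4a3, chr4:48045098-48045127: atTGACGtctcgCATTCCaggcactctatg
Adam19, chr11:46055940-46055969: ctcccctcctccCATTCCaggcagagccct
Errfi1, chr4:150853719-150853748: aggccagcacctCATTCCatatgttaaact
Errfi1, chr4:150855006-150855035: gggctgcgggcgtTGACGTCAcgttgtcgc
Of 32851 promoters of this length, 14.7% hold the TEAD motif, 20.8% hold the cAMP core and 2.56% hold both, searched on both strands. The second Errfi1 sequence comes from another start site of the gene and shows overlapping matches of the cAMP core on both strands. Of the 3 Adam19 windows 1 holds a TEAD match, and the windows of Dusp6 and Dcdc2a hold neither motif. A match describes the letters and shows neither binding nor a cause.

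Kcnip4 (ENSMUSG00000029088), which encodes a calcium sensor that binds A-type potassium channels, was the gene called in the Insm1 comparison. Its level was 245 and 249 CPM in members of the Insm1 controls and 796, 655 and 645 CPM in the mutants, with every mutant far above both controls. The rise was 1.504 ± 0.17 on the log2 scale (edgeR adjusted p = 0.00206). For Tead1/2 it was at 452 and 422 CPM in controls and in mutants at 923, 661 and 803 CPM, a log2 change of 0.86 ± 0.16 that missed the threshold (edgeR adjusted p = 0.0617). In all members it was called in both comparisons (log2 changes 1.42 and 1.10). Without Insm1 control 1 or control 2 the Insm1 change kept its size, 1.503 and 1.51, and the adjusted p was 0.152 and 0.0962. When members with 3 or more granule markers were left out instead, the change was 1.17 and was not called (edgeR adjusted p = 0.690). The mean level was 107 CPM in granule-rule cells and 18.6 CPM in endothelial-rule cells.

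Cluster 2 held the highest Kcnip4 level. Its share of low-marker members was 33.9% and 28.1% in the Insm1 controls and 34.2% to 42.5% in the mutants, and 41.9% and 27.8% against 39.3% to 55% for Tead1/2. Cluster 1 was the larger of the pair in both Insm1 controls, in Insm1 mutant 3 and in Tead1/2 control 2, and cluster 2 in the other libraries. Clusters were built from these genes, so their sizes are a description, and the part of the make-up in the changes of Kcnip4 and other cluster 2 genes was not tested. Pooled over libraries, the Kcnip4 level in cluster 2 was 425 CPM in Insm1 controls and 1435 CPM in mutants, and 738 and 1280 CPM in the Tead1/2 groups. In cluster 1 it was 213 and 507 CPM, and 380 and 581 CPM. These pooled values have no replicate error and no test.

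Apcdd1 (ENSMUSG00000071847), a membrane inhibitor of Wnt signalling that is also made by brain endothelium, rose in Tead1/2 mutants. It stood at 182 and 220 CPM in the Tead1/2 controls and 440, 346 and 473 CPM in the mutants, with no overlap (log2 change 1.08 ± 0.16, edgeR adjusted p = 0.0218). In the Insm1 groups it stood at 234 and 204 CPM and at 347, 330 and 343 CPM (log2 change 0.63, not called). Its mean in endothelial-rule cells was 1129 CPM. The 8 endothelial genes that the rule did not use, none of them at 0, summed to 280 and 295 CPM in the low-marker members of the Tead1/2 controls and 239 to 265 CPM in those of the mutants. Of these Cdh5, the cadherin of endothelial junctions, averaged 214 CPM there and 611 CPM in endothelial-rule cells, and the part of endothelial RNA in the change was not tested. Without Tead1/2 control 1 the change was 0.93 and the adjusted p 0.258.

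Dcdc2a (ENSMUSG00000035910), which encodes a microtubule-binding doublecortin-domain protein, rose as well. It stood at 213 and 198 CPM in the Tead1/2 controls and 442, 357 and 480 CPM in the mutants (log2 change 1.04 ± 0.17, edgeR adjusted p = 0.0368). For Insm1 it was at 212 and 148 CPM in controls and in mutants at 298, 299 and 257 CPM, a change of 0.65 that was not called. In both alleles the mutants lay above their controls. Without Tead1/2 control 2 the Tead1/2 change was 0.99 and the adjusted p 0.302. In all members Dcdc2a was called in both comparisons (1.00 and 1.44). With members of 3 or more granule markers left out instead, its Tead1/2 change was 1.01 and was not called (edgeR adjusted p = 0.203).

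Adam19 (ENSMUSG00000011256), a membrane metalloprotease that sheds neuregulins, fell in Tead1/2 mutants. It stood at 425 and 447 CPM in the controls and 178, 218 and 181 CPM in the mutants (log2 change -1.17 ± 0.14, edgeR adjusted p = 0.00319). In the Insm1 groups it was 369 and 323 CPM in controls and 304, 275 and 330 CPM in mutants, where the groups overlapped. The difference between alleles was -0.97 and was not called (edgeR adjusted p = 0.466). Adam19 fell in all members too (-0.86), and it alone of the 7 genes kept an adjusted p under 0.05 under each alternative listed for it in either set and, in low-marker members, without each library in turn.

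Dusp6 (ENSMUSG00000019960), the phosphatase that turns off ERK and is itself induced by it, stood at 137 and 146 CPM in the Tead1/2 controls and 58.7, 55.7 and 76.9 CPM in the mutants. It fell by 1.12 ± 0.19 on the log2 scale (edgeR adjusted p = 0.0368). Errfi1 (ENSMUSG00000028967), a feedback inhibitor of the EGF receptor, stood at 202 and 188 CPM in the controls and 106, 109 and 109 CPM in the mutants (log2 change -0.85 ± 0.14, edgeR adjusted p = 0.0368, and 0.0599 with the library number as a block). Nr4a3 (ENSMUSG00000028341), an immediate early orphan nuclear receptor, stood at 46.6 and 48.6 CPM in the controls and 11.7, 6.04 and 9.89 CPM in the mutants (log2 change -2.39 ± 0.34, edgeR adjusted p = 0.0202). For each of the 3 genes all Tead1/2 mutants lay below both controls, and the Tead1/2 controls lay above both Insm1 controls. In the Insm1 comparison none of the 3 was called. Without Tead1/2 control 1, which leaves 1 control, the calls were lost, with changes of -1.18 for Dusp6, -0.79 for Errfi1 and -2.42 for Nr4a3. With members of 3 or more granule markers left out instead, none was called, at adjusted p = 0.275 for Dusp6, 0.288 for Errfi1 and 0.275 for Nr4a3 in edgeR. Their changes were then -0.93, -0.80 and -2.13. In all members Dusp6 and Nr4a3 were called, with smaller changes of -0.70 and -1.46 (edgeR adjusted p = 0.0160 and 0.0313). There both calls were lost by DESeq2 (adjusted p = 0.0708 and 0.0717) and in edgeR with a term for sex (0.0857 and 0.111), and that of Nr4a3 in thinned sums (0.235). The changes were -0.69 and -1.44 by DESeq2, -0.60 and -1.40 with the sex term, and -1.17 for Nr4a3 in thinned sums. In all members the change of Errfi1 was -0.31 and was not called (edgeR adjusted p = 0.300).

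These 3 genes respond quickly to growth factors and to tissue dissociation, so the dissociation list was read beside them. Of its 7 genes tested 7 were lower and none was called in the Tead1/2 comparison, with a median of -0.77 against 0.01 for all genes. The summed list was 805 and 428 CPM in the Tead1/2 controls and 439, 312 and 422 CPM in the mutants, so that control 1 stood apart. The immediate early genes Fos and Egr1 changed by -0.77 and -1.13, neither called. The part of dissociation in the change of Dusp6, Errfi1 and Nr4a3 was not tested.

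**Figure D4:**
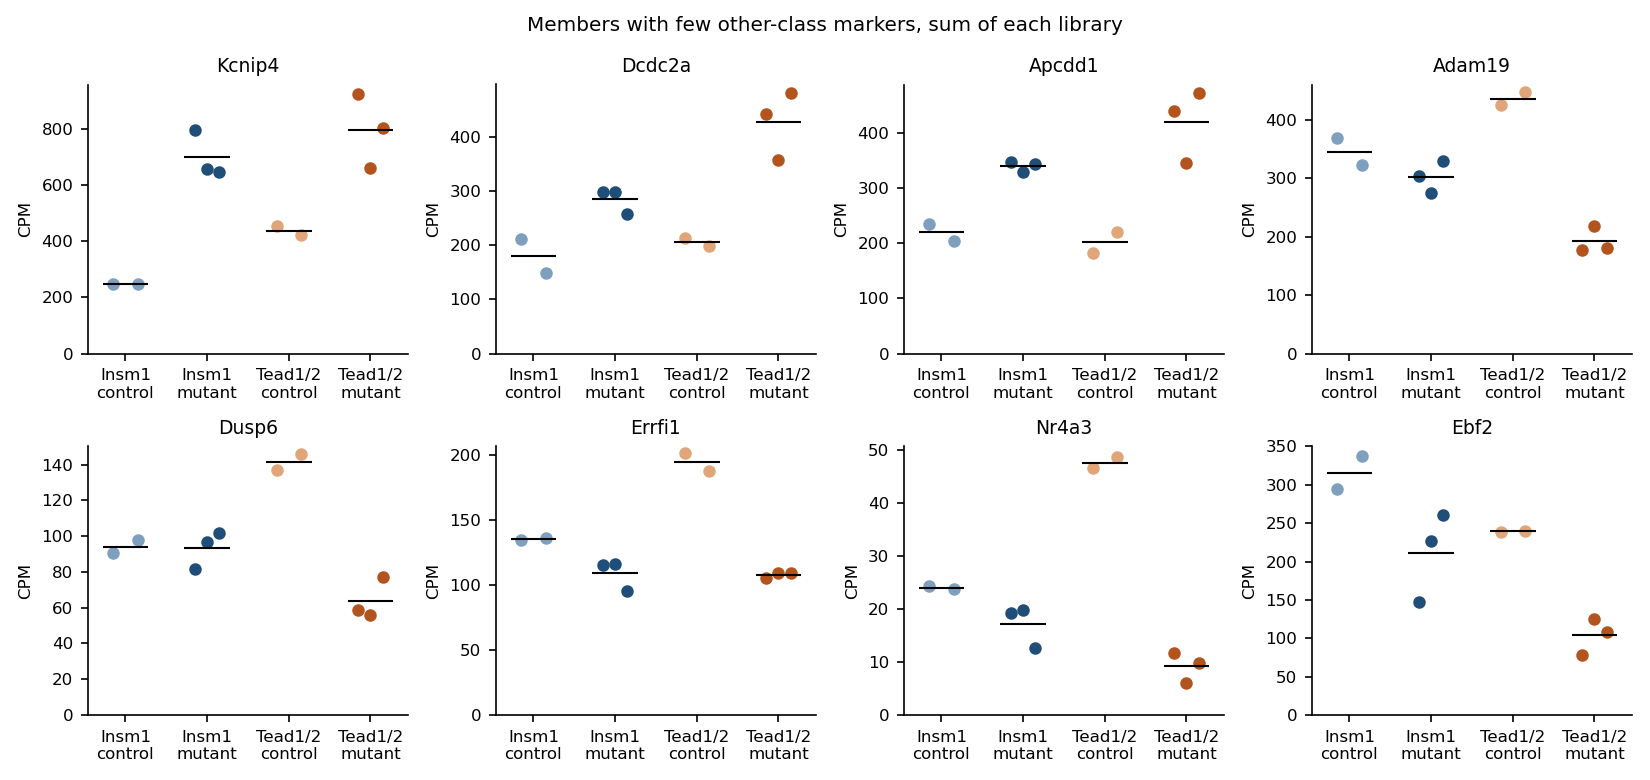
Levels in CPM of 8 genes in the summed low-marker members of each of the 10 libraries: the 7 genes called there and Ebf2. Points are libraries and lines are group means. Kcnip4 lies between 645 and 796 in the Insm1 mutants and at 245 and 249 in their controls. Adam19 lies between 178 and 218 in the Tead1/2 mutants and at 425 and 447 in their controls.

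The transcription factors of the meninges included a pair from the same family that was lower in Tead1/2 mutants. Ebf2, a helix-loop-helix factor of mesenchymal cells, stood at 239 and 240 CPM in the Tead1/2 controls and 78.3, 126 and 108 CPM in the mutants, in low-marker members (log2 change -1.17 ± 0.22), and missed the threshold there (edgeR adjusted p = 0.0617). Its relative Ebf1 stood at 853 and 739 CPM and at 445, 503 and 543 CPM (log2 change -0.68, edgeR adjusted p = 0.0617). In all members both fell in the Tead1/2 comparison (-0.91 and -0.76). Ebf1 fell there in the Insm1 comparison also (-0.54), but in low-marker members its Insm1 change was 0.39, and its granule-rule mean was 1697 CPM. Of the 15 factors tested in all members Ebf1 was the 1 called in the Insm1 comparison, and Foxc1 (0.57), Ebf1 and Ebf2 were called in the Tead1/2 comparison. The list medians were 0.44 and 0.17 in all members and 0.12 and -0.21 in low-marker members.

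Of the fibrillar and other collagens 1 was called. Of 14 non-marker collagen genes tested in all members none was called in the Insm1 comparison and 1 in the Tead1/2 comparison, with medians of 0.28 and 0.19 and ranges of -0.83 to 0.64 and -0.98 to 0.80. That gene was Col14a1, which encodes a collagen that binds fibrils, with a change of -0.98. In low-marker members it stood at 81.9 and 130 CPM in the Tead1/2 controls and 19.6, 36.9 and 43.4 CPM in the mutants (log2 change -1.52, edgeR adjusted p = 0.0765). The list medians there were -0.04 and -0.07, near the median of all genes, with ranges of -0.37 to 2.12 and -1.52 to 0.17 and 0 of 12 called in either comparison.

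The basement membrane list gave 1 of 16 genes called in the Insm1 comparison, Col4a2 (0.63), and none in the Tead1/2 comparison, with medians of 0.33 and 0.19. Among matrix glycoproteins 1 of 31 rose in Insm1 mutants, the microfibril protein Fbn2 (0.50). In Tead1/2 mutants 3 rose, namely the collagen chaperone Sparc (0.55), the elastin crosslinker Loxl1 (0.88) and the collagen-binding proteoglycan Fmod (1.08). In low-marker members 0 of 16 and 0 of 28 genes of these lists were called in either comparison, and every median lay between -0.06 and 0.06.

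Secreted signals were among the genes higher in all members. Of 31 tested, Bmp5 (0.64), Igfbp2 (0.57) and Wnt5a (0.67) rose in Insm1 mutants. In Tead1/2 mutants Bmp6 (0.66), Igf2 (0.50), Igfbp2 (0.73) and Wnt5a (0.67) rose. Igf2, the insulin-like growth factor of the meninges, stood at 2727 and 2734 CPM in the Tead1/2 controls and 3722, 3647 and 4242 CPM in the mutants, without overlap (edgeR adjusted p = 0.0455). In low-marker members none of the 27 tested was called, the Igf2 change was 0.36, and the medians were 0.02 and -0.05 against 0.30 and 0.29 in all members. Cxcl12 changed by 0.17 and 0.14 in all members and by -0.14 and -0.07 in low-marker members, called in none of them.

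Wnt4, a ligand of the Wnt family, was lower in the Tead1/2 controls than in any other library. In all members it stood at 25.2 and 17.0 CPM in the Tead1/2 controls and 68.3, 62.7 and 76.0 CPM in the mutants (log2 change 1.62, edgeR adjusted p = 0.000325). The Insm1 libraries gave 100 and 84.1 CPM for controls and, for mutants, 114, 89.0 and 107 CPM. The Tead1/2 mutants thus lay between their own controls and the Insm1 controls. In low-marker members the Tead1/2 change was 1.33 (edgeR adjusted p = 0.151).

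The retinoid pathway and the barrier list gave few calls. Aldh1a2 was the 1 of 12 retinoid genes called, higher in Tead1/2 mutants (0.59), with list medians of 0.38 and 0.42 in all members and -0.03 and 0.00 in low-marker members. Of 22 barrier transporters and junction genes, the dicarboxylate carrier Slc13a3 (0.73) and the connexin Gjb2 (0.87) rose in Tead1/2 mutants and none was called in Insm1 mutants. The medians were 0.36 and 0.34 in all members and -0.07 and 0.13 in low-marker members, where 0 of 21 were called. Ptgds, the prostaglandin D synthase, had levels of 821 and 1149 CPM for Insm1 controls in the low-marker set, with 595, 547 and 461 CPM for mutants. In the Tead1/2 groups it stood at 265 and 240 CPM and at 286, 514 and 473 CPM, so that the 2 control groups stood further apart than either mutant group from its controls.

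Genes of the YAP and TEAD pathway were read because Tead1 and Tead2 were targeted. Of 17 tested in all members, the angiomotin Amotl2 (1.07) and the phosphatase Ptpn14 (0.70), both inhibitors of YAP, rose in Insm1 mutants. In Tead1/2 mutants Myof, a membrane repair ferlin, rose (0.65), and Ccn1, a matricellular YAP target, fell (-0.89). In low-marker members Ccn1 stood at 64.95 and 58.4 CPM in the Tead1/2 controls and 31.3, 26.2 and 20.9 CPM in the mutants, with a change of -1.29 that was not called (edgeR adjusted p = 0.116). Both Insm1 controls, at 15.5 and 20.7 CPM, lay below all the Tead1/2 libraries. The list medians were 0.46 and 0.25 in all members and 0.20 and -0.01 in low-marker members, where 0 of 15 were called.

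Cell cycle genes, which granule progenitors and the members of cluster 5 both carry, were lower in mutants when all members were summed. Of 12 tested, 6 fell in Insm1 mutants and 3 in Tead1/2 mutants, with medians of -1.11 and -0.76. Mki67 changed by -1.24 and -0.96, and its granule-rule mean was 703 CPM. In low-marker members the medians of the 7 cell cycle genes tested were 0.19 and 0.58, and none was called. The astroglial genes Aqp4 (3.06) and Gfap (4.45) were called higher in Tead1/2 mutants when all members were summed. They averaged only 4.38 and 0.535 CPM in low-marker members, and both calls and their sizes are given as a description. The muscle markers had been limited by the rule, and their levels are a description: in low-marker members Ttn stood at 50.8 and 45.4 CPM in the Tead1/2 controls and 97.9, 158 and 108 CPM in the mutants. The summed level of the 16 muscle genes that the rule did not use was low, and it was higher in every mutant than in its controls. In low-marker members the sum was 19.9 and 14.8 CPM in the Insm1 controls against 48.0, 37.4 and 50.8 CPM in the mutants. For Tead1/2 it was 18.4 and 16.2 CPM in controls against 41.8, 54.4 and 37.9 CPM in mutants. In all members 1 of the 16 was tested, the myogenic factor Myog, and it was called higher in Insm1 mutants (4.97, edgeR adjusted p = 0.0310). It had 0 and 2 UMIs in the controls and 8, 18 and 43 in the mutants. The controls lay below the level of the low-count filter, so the call and its size are a description. Without either Insm1 control that call was lost (edgeR adjusted p = 0.181 and 0.182). The part of these cell types in the gene changes was not tested.

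Some genes called higher in all members had a higher level in members than in granule-rule cells and are not in the marker lists used here. Their levels in microglia, interneurons, astroglia and oligodendrocytes were not read. Asic2, the channel gene of cluster 2, stood at 289 and 642 CPM in the Tead1/2 controls and 2085, 1328 and 1468 CPM in the mutants (log2 change 1.83, edgeR adjusted p = 0.014). Fndc1, a fibronectin-domain protein, rose by 1.44 in Insm1 mutants and 1.64 in Tead1/2 mutants (edgeR adjusted p = 0.0121 and 0.00143). Adcy7, an adenylyl cyclase that makes cAMP, rose by 2.703 in Tead1/2 mutants (edgeR adjusted p = 0.00161). In low-marker members the changes of Asic2, Fndc1 and Adcy7 in Tead1/2 mutants were 1.49, 1.28 and 2.26, none called. All 3 had their highest level among the larger clusters in cluster 2, whose share also differed between libraries, and Fndc1 stood there at 447 CPM against 44.7 CPM in cluster 1.

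At P2 the bulk libraries of whole cerebellum, with totals of 28066600 to 64518800 expected counts, were read for 145 fibroblast genes from the lists above. In bulk tissue fewer cells of a type and less RNA per cell cannot be told apart. Some list genes, such as Ebf1, were also high in granule-rule cells at P7, so a bulk change cannot be assigned to fibroblasts. In the Insm1 comparison edgeR called 135 of 19582 genes (0.689%), 94 higher (0.48%) and 41 lower (0.209%). Of the 145 fibroblast genes tested 2 were called, both lower, and the list median was -0.18 against 0.01 for all genes. At an unadjusted p under 0.05 there were 35 of the 145, against 1763 of all 19582 genes. These depended on single libraries: without Insm1 control 1 the list median was -0.06 with 20 of 146 genes, and without mutant 2 it was -0.23 with 53 of 147. Without mutant 3 there were 23 of 148.

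Fbln2, a fibulin of elastic fibres and basement membranes, stood at 19.2, 19.6, 20.5 and 23.4 CPM in the P2 Insm1 controls and 11.4, 12.7, 15.4 and 13.4 CPM in the mutants. Every mutant lay below every control (log2 change -0.65 ± 0.10, edgeR adjusted p = 0.0216). Stra6, the membrane receptor that takes up retinol, stood at 5.89, 3.01, 3.34 and 4.49 CPM in the controls and 1.57, 1.67, 1.91 and 2.17 CPM in the mutants, again without overlap (log2 change -1.20 ± 0.22, edgeR adjusted p = 0.0457). Both calls were lost without some single libraries, with 0 of the list called without Insm1 control 1, 3 or 4 or mutant 4. The 6 rule fibroblast markers were all lower in mutants, with a median of -0.62, and none was called. Col3a1 stood at 118, 65.7, 62.8 and 75.2 CPM in the controls and 49.1, 85.4, 36.1 and 36.3 CPM in the mutants, where mutant 2 overlapped the controls (log2 change -0.64, edgeR adjusted p = 0.558).

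In the P2 Tead1/2 comparison edgeR called 0 of 20247 genes (0%), with 4052 at an unadjusted p under 0.05 and 955 called by DESeq2. None of 146 fibroblast genes was called (28 at an unadjusted p under 0.05, 6 by DESeq2), and their median was -0.01. For Fbln2 and Stra6 the library labelled Tead1/2 mutant 4 stood apart from the other mutants, and the cause was not tested. Fbln2 stood at 21.6, 29.4 and 28.3 CPM in the controls and 9.39, 11.3, 12.5 and 21.7 CPM in the mutants, the last value being mutant 4 (log2 change -0.96, edgeR adjusted p = 0.0996). Stra6 stood at 2.65, 3.22 and 2.97 CPM in the controls and 1.29, 1.54, 1.46 and 2.47 CPM in the mutants (log2 change -0.82, edgeR adjusted p = 0.105). In both genes mutant 4 was the mutant nearest the controls.

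Without that library edgeR called 646 of 20234 genes (3.19%), 400 higher (1.98%) and 246 lower (1.22%). Of the 146 fibroblast genes tested it called 7, 3 higher and 4 lower. Fbln2 (log2 change -1.26), Stra6 (-1.04), the elastic fibre protein Eln (-0.68) and Col11a1 (-0.52) were lower. The latent TGF-beta binding protein Ltbp2 (1.08), the growth factor Tgfb3 (0.59) and the lipid transporter Abca9 (0.62) were higher. The library left out was the mutant nearest the controls for Fbln2 and Stra6, so its removal by itself enlarges their changes. Genes of this fit were named after their values were seen, and their calls are a description. With all libraries none of them was called. The 6 rule fibroblast markers had a median of 0.10 in this fit, and none of them was called. Of the 7 genes called at P7 in low-marker members none was called in this fit, where Adam19 came nearest (-0.34, edgeR adjusted p = 0.0583). With all libraries Kcnip4 changed by 0.26 in the P2 Insm1 comparison (edgeR adjusted p = 0.311), and Adam19 by -0.32 in the Tead1/2 comparison (edgeR adjusted p = 0.0987).

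**Figure D5:**
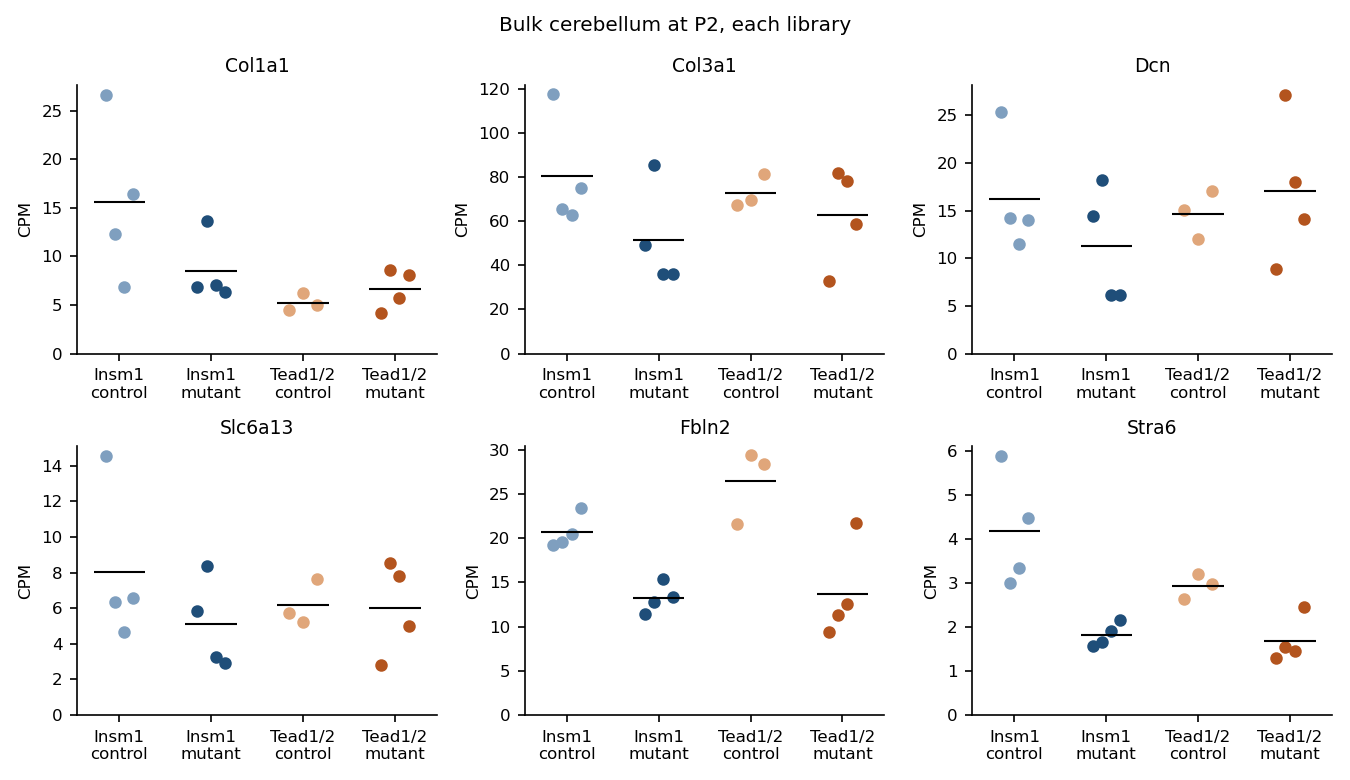
Levels in CPM of 4 rule markers (Col1a1, Col3a1, Dcn, Slc6a13) and of Fbln2 and Stra6 in each bulk library of P2 cerebellum. Points are libraries and lines are group means. Fbln2 and Stra6 do not overlap between Insm1 controls and mutants, and the highest Tead1/2 mutant in each is mutant 4, at 21.7 and 2.47.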

How the data were processed

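Single-cell libraries (10, P7) were deposited as raw transcript (UMI) counts per barcode with no cell filter, and the authors' gene tables name a GRCm39 build, per the file headers. Bulk libraries (15, P2) were deposited as RSEM expected counts, rounded here to whole numbers. The submitters' processing notes list STAR 2.7.9a, RSEM 1.3.3 and Trim Galore 0.6.3 among their tools and GRCm38.p6 and mm10 as builds, with no role given. Other assays of the series were not used here. Counts of members were summed per library and fitted with edgeR 4.0.16 in R 4.3.3 (TMM, filterByExpr, glmQLFTest), all 4 groups in 1 fit at P7 and each allele apart at P2, with Benjamini-Hochberg adjustment over all genes tested and calls under 0.05. CPM use TMM-scaled totals. DESeq2 1.42.0, scanpy 1.11.5 (Leiden, resolution 0.5, 2000 variable genes, 20 components, 15 neighbours) and exact permutation of shares completed the work; scripts were tested on simulated data. Libraries are single pups, so replicates are animals. For an alternative fit, sex was read from Xist and Y-linked genes of each whole library. The members and gene lists were chosen with earlier results of these data known, and low-marker members (the set with at most 1 marker of each other class), the thinned sums, the kept muscle-marker members and the narrower endothelial count were added after seeing the data. Etv1, Unc5c and Slc1a3 were not counted as other-class markers, and Rgs5, Kcnj8, Abcc9 and Higd1b served for mural cells.

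Genes were named by rule: rule markers, targeted genes, up to 10 called genes per direction with at least 50 CPM and no overlap, up to 6 genes per list and list genes called, and the 20 largest ratios to granule-rule cells among genes of at least 200 CPM. Genes called in low-marker members and values beside them (Ttn, Wnt4 in that set, Ccn1, P2 genes without mutant 4) were named after their values were seen. Promoters come from RefSeq. At P7 number 1 marks libraries of all lobules, and the number served as a block in an alternative fit. Beyond that numbers did not pair samples: same-number residual correlations were -0.14 to -0.03 at P7 and -0.28 to 0.40 at P2.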

Additional observations from a re-analysis of the deposited data

Results flagged for a closer look

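For each of 4 fibroblast genes in the P2 bulk libraries, 1 Insm1 mutant stood apart from the other 3, though not the same mutant for all. Mutant 2 was highest for the type I collagen chains Col1a1 (13.7 CPM) and Col1a2 (34.2 CPM) and for the lipid transporter Abca9 (12.03 CPM), and mutant 1 was lowest for Col11a1 (16.02 CPM). Chance sets a sample apart in this way in about 1 of 20 groups, and many genes were looked at.

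The number of members per 100 endothelial barcodes was lower in the Insm1 mutants and higher in the Tead1/2 mutants than in their controls, with a difference of 267.5 between the mutant effects (exact permutation, p = 0.02). With the narrower count of endothelial barcodes it was 608 (exact permutation, p = 0.02), and there the Tead1/2 groups overlapped. Both p are unadjusted and rest on the same members and libraries. Endothelial barcodes were a larger share of all barcodes in the Insm1 mutants than in their controls, while the member shares overlapped.

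For 6 of the genes named by rule, every mutant of one allele lay above its controls and every mutant of the other allele lay below. Given as the Tead1/2 log2 change minus the Insm1 log2 change, the difference was -1.93 for Ccn1 in all members. In low-marker members it was -1.07 for Ebf1, 1.62 for Ptgds, 0.33 for Abca9, -1.30 for Amotl2 and -0.95 for Runx2. edgeR's test of the difference called none of them, with adjusted p = 0.421 for Ccn1, 0.279 for Ebf1, 0.421 for Ptgds and 0.736 for Amotl2. The value of Ebf1 was the lowest of any gene in low-marker members. With so few libraries per group, chance alone sets some genes apart in this way. The share of all tested genes with this pattern was not counted. The number of such genes is therefore a description and gives no evidence of opposite effects.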

How the results depend on the processing

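The Insm1 share difference (0.0368 points) has no stable sign. It was -0.058 with 2 markers required and -1.14 with no upper limit on UMIs. It was -1.74 with members and all barcodes limited to fewer than 3 granule and fewer than 3 muscle markers. Per 100 endothelial barcodes it was -111.71 (-435 by the narrower count), and without single libraries it was -0.118 to 0.191. For Tead1/2 it was 0.886 to 2.43 without single libraries. Over both alleles it was -0.110 with no upper limit, -131 per 100 endothelial barcodes by the narrower count, 0.461 to 1.23 without single libraries, and passed 0.05 without members of 3 or more granule markers (0.981) or in low-marker members (0.928), exact permutation p = 0.04 each, but not after adjustment over the 3 share tests (0.12 each).

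Genes called in all members numbered 814 (Insm1), 970 (Tead1/2) and 137 (difference) with no low-count filter, and 0 and 4 without members of 3 or more granule markers. In low-marker members they numbered 1 and 6, and in thinned sums 184 for Insm1. DESeq2 called 6 differences and the replicate block 5. Without single libraries the counts were 56 to 399, 249 to 595 and 0 to 1. In low-marker members without single libraries they were 0 to 2, 2 to 9 and 0 to 1, DESeq2 called 25 for Tead1/2 and 2 differences, and the block called 23 for Tead1/2. In all members the block gave an adjusted p in edgeR of 0.0616 for Nusap1 in the Insm1 comparison, and of 0.0792 for Nusap1 and 0.0838 for Kif11 in that of Tead1/2. At P2 it gave an adjusted p of 0.0618 for Fbln2 and 0.155 for Stra6 in edgeR. The P2 list count was 8 (Insm1) and 6 (Tead1/2) by DESeq2, 7 and 17 with no filter, 0 and 5 with the replicate block, 1 for Insm1 with all 15 libraries in 1 fit, and 0 to 2 and 0 to 7 without single libraries.

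Some genes called in all members changed sign. Without members of 3 or more granule markers the Insm1 changes were -0.24 for Lrrtm3, -0.19 for Pcdh15, 0.62 for Nrg1, 0.42 for Ebf1, 0.039 for Mki67, 0.41 for Top2a, 0.45 for Cenpf, 0.66 for Kif11 and 0.77 for Nusap1, and the Tead1/2 changes -0.31 for Kirrel3, 0.26 for Grin2b and 0.63 for Unc5c. In low-marker members the Insm1 changes were 0.39 for Ebf1, 0.16 for Mki67, 0.19 for Top2a, 0.72 for Cenpf, 0.18 for Kif11 and 0.23 for Nusap1, and the Tead1/2 changes -0.16 for Kirrel3, -0.52 for Csmd1, 0.26 for Kif11, 0.29 for Nusap1 and 0.48 for Unc5c. Where a value moved, the cause was not tested. Sums of few members and 2 controls per allele limit what can be detected.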
